A study of Mus musculus with 40 samples.

Results

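The mitochondrial respiratory chain of mouse liver was followed through the transcripts of its nuclear-encoded subunits. Members were protein-coding genes whose symbols start with Ndufa, Ndufb, Ndufc, Ndufs, Ndufv, Uqcr, Cox4i, Cox5, Cox6, Cox7, Cox8 or Atp5, together with Sdha, Sdhb, Sdhc, Sdhd, Cyc1 and Cycs, without the Ndufaf assembly factors and without pseudogenes. A mean of at least 1 CPM (counts per 1e6 counts) over the 40 count tables was required. The rule kept 79 of the 57186 gene IDs: 36 of complex I, 4 of complex II, 9 of complex III, 12 of complex IV, 17 of complex V and cytochrome c. Ndufa4, which carries a complex I name, was placed in complex IV, of which its product is a subunit.

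Poly(A) RNA from liver was sequenced in 40 libraries in a study of mice labelled as KO or WT for NNT (nicotinamide nucleotide transhydrogenase, an inner-membrane enzyme that makes NADPH). The 8 groups of 5 libraries were KO males on HFD and on chow, WT males on HFD and on chow, KO females on HFD and on chow, and WT females on HFD and on chow. All carried the strain label C57BL/6NCrl. The mice were 22 to 24 weeks old, and those on HFD had left chow at 11 to 13 weeks for 11 weeks of a diet with 45 kcal% fat. Liver was collected between 2 and 4.5 h into the light phase. The labels do not tie replicate numbers to separate mice, and the p-values therefore cover library-to-library spread that may be technical.

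The respiratory chain passes electrons from NADH (complex I) and succinate (complex II) through coenzyme Q to complex III, on to cytochrome c and then to oxygen at complex IV. Complexes I, III and IV pump protons, and complex V, the ATP synthase, lets them back to make ATP. Complex II is wholly nuclear-encoded, while complexes I, III, IV and V also hold subunits made from mitochondrial DNA. In liver the chain takes up electrons from fatty acid oxidation and the citric acid cycle.

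Totals ran from 15.97 M to 28.16 M counts per library (M, 1e6), with a median of 20.43 M. Nnt (ENSMUSG00000025453) was near the floor in all 8 groups, with 13 to 54 reads per library, and averaged 1.16 ± 0.44 CPM in KO males on HFD against 1.40 ± 0.27 CPM in WT males on HFD (SD, n = 5 each). Its counts therefore give no check of the genotype labels. The diet in the titles was used, because a second label for treatment gives chow for every WT and HFD for every KO library and differs from the titles in 20 of 40 libraries. KO male chow replicate 3 stood apart, with 4.02% of its counts from the mitochondrial genome, against 5.94% in the next lowest library; without it, 41 members were called between the sexes and 11 between the diets, against 43 and 13 with it. The 6 hepatocyte markers were detected in every library and summed to between 57110 and 128400 CPM.

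The 79 members took between 0.831% and 1.00% of all counts of a library. Complex V held 37.7% of the members' summed CPM on average over the 40 libraries, complex I 22.2%, complex IV 15.4%, complex III 12% and complex II 11.7%. Across libraries the share of complex I lay between 21.3% and 23.1%, and that of complex V between 36.1% and 38.7%. Cytochrome c held 0.982%, with a wider relative range of 0.71% to 1.26%.

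Per transcript length, the subunits of complex IV were the most abundant as a set, with a median level of 194.5 RPKM over 12 members. The medians were 130.4 RPKM for complex V, 125.6 RPKM for complex II, 115.9 RPKM for complex III and 61.2 RPKM for complex I. Atp5b, the catalytic beta subunit of the ATP synthase, had the highest level of all at 528.9 RPKM. Ndufa4 led complex IV at 371.9 RPKM, Uqcrq, a small subunit of complex III, led its complex at 304.0 RPKM, Sdha, the flavoprotein of complex II, was at 215.8 RPKM, and Ndufa6 led complex I at 206.4 RPKM. Cycs, cytochrome c itself, was at 28.8 RPKM. The order depends on the annotated lengths: with the union of all exons as the length, the medians were 35.4 RPKM for complex I, 112.9 RPKM for complex IV and 38.8 RPKM for complex V, and Ndufa6 ranked 14 among complex I members. By that length complex V fell below complexes II and III. Uqcr10, the middle member of complex III, was at 81.7 RPKM, and Sdhc, the lowest of complex II, at 44.9 RPKM.

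Isoforms named for other tissues were low or undetected. Cox4i1, the common form of the complex IV regulatory subunit, was at 212.3 CPM, whereas Cox4i2, its lung form, averaged 0.049 CPM. The heart and muscle forms Cox6a2, Cox7a1 and Cox8b averaged 0.037, 0.682 and 0.014 CPM, against 135.5, 66.1 and 90.8 CPM for their common partners Cox6a1, Cox7a2 and Cox8a. Cox6b2, a testis form, averaged 0.141 CPM, and no reads were seen for Cox7b2, Cox8c and a second gene model of Atp5o. Ndufa4l2 lay just below the threshold at 0.996 CPM. These 9 were not members. The 3 members of lowest level were Ndufb2 at 5.75 CPM, Atp5s at 6.17 CPM and Ndufb8 at 7.87 CPM. Atp5s is a factor related to the coupling of the ATP synthase and not a core subunit.

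The c subunit, whose ring turns in the membrane part of the ATP synthase, is encoded by 3 genes that make the same mature protein. Atp5g3 was the highest of them at 241.9 CPM (336.6 RPKM), Atp5g1 was at 123.0 CPM (46.0 RPKM) and Atp5g2 at 46.0 CPM (78.5 RPKM). The order of Atp5g1 and Atp5g2 thus depends on whether length is counted. Of the distinct 100-base windows in the transcripts of Atp5g2, 34.7% are also found in transcripts of other genes, so its counts are uncertain. The share was 5.94% for Atp5g1 and 0% for Atp5g3. Over 20% of shared windows, or of exon bases overlapping another gene, was also found for Cycs, Ndufa13, Ndufb6 and Atp5o.

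The promoters of these 3 genes and of Cycs are shown because Cycs had the largest sex difference of the members, and because the 3 c subunit genes share a product while a different one was called by sex and by diet. Each is the 150 bases before the RefSeq start on build GRCm38.p6, read along the gene. Capitals mark matches to GCGCATGCG (the NRF1 motif), TNAAGGTCA (the ERR motif) and CCAAT (the NF-Y motif) on either strand. They lie on the minus strand at chr6:50566570-50566719 for Cycs, chr11:96075632-96075781 for Atp5g1, chr15:102671048-102671197 for Atp5g2 and chr2:73911327-73911476 for Atp5g3.
Cycs: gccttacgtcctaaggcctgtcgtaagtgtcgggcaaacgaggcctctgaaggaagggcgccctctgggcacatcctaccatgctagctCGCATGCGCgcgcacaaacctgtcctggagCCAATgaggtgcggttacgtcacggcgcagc
Atp5g1: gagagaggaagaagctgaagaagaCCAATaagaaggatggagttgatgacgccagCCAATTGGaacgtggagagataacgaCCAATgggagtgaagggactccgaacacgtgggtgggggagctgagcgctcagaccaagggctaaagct
Atp5g2: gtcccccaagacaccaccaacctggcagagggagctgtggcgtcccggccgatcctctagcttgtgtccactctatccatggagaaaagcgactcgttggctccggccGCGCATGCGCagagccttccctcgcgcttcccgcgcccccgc
Atp5g3: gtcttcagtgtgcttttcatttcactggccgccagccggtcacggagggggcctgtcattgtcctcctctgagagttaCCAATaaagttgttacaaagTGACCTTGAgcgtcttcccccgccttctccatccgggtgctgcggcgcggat

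The 4 promoters differ in the motifs they hold. Cycs has an NRF1 match and a CCAAT box, Atp5g2 an NRF1 match that reads on both strands and overlaps itself, Atp5g3 an ERR match and a CCAAT box, and Atp5g1 CCAAT boxes alone, of which one pair overlaps on opposite strands. Promoters were found for 66 of the 79 members. In the 250 bases before the start, the NRF1 motif was present in 7 of 66 members (10.6%) and in 1.64% of 27025 genes with a promoter in the table. The 7 were Cycs, Atp5g2, Atp5k, Atp5l, Cox6a1, Ndufa8 and Ndufa11. CCAAT was present in 28 of 66 members (42.4%) and 37.5% of all genes, CCGGAAGT (an ETS motif, bound by GABP) in 4.55% and 3.23%, TNAAGGTCA in 3.03% and 1.3%, and AAGATGGCG (a YY1 motif) in 1.52% and 0.71%. The 27025 genes were not limited to the 15627 tested, whereas members had to reach a mean of 1 CPM. Shares among the tested genes are not given. A match is a run of letters and not a measured binding site.

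The clearest differences lay between the sexes. In the mean over the 4 strata of genotype and diet, 42 of 79 members (53.2%) were higher and 1 (1.27%) was lower in males, while 25.1% of all 15627 genes tested were higher and 25.2% lower, 50.3% in either direction (edgeR, adjusted p under 0.05). The median log2 difference, male minus female, was 0.10 over the members and -0.005 over all genes. With library totals as the only scaling, 21 members were higher and 3 lower, and the medians were 0.03 over the members and -0.08 over all genes. The shares of all genes above belong to the TMM fit, and those under library totals are not given. For no member did the 20 male and the 20 female libraries fail to overlap. The same count over all genes tested is not given, so the members cannot be set against them here.

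Cycs showed the largest sex difference of the members. It ran from 87.9 to 120.8 CPM in the 20 male libraries, with a median of 102.3 CPM, and from 64.2 to 89.4 CPM in the 20 female libraries, with a median of 78.4 CPM. Only KO male chow replicate 3, at 87.9 CPM, and the highest female libraries overlapped. The log2 difference was 0.42 ± 0.03 (SE; adjusted p = 6.78e-13), and with each library left out in turn it stayed between 0.41 and 0.43.

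In complex I, 18 of 36 members were higher in males (50%), with a median log2 difference of 0.11. Ndufb3, an accessory subunit, ran from 43.6 to 68.9 CPM with a median of 50.1 CPM in males and from 34 to 47.6 CPM with a median of 41.4 CPM in females, a log2 difference of 0.35 ± 0.05 (adjusted p = 5.77e-08). Ndufa8, another accessory subunit, had medians of 68.3 CPM in males and 55.1 CPM in females, and Ndufa10 134.4 CPM in males and 112.5 CPM in females. Their log2 differences were 0.33 ± 0.05 and 0.25 ± 0.03. In all 3 the ranges overlapped. Of the core subunits, Ndufs1, which holds iron-sulfur clusters, differed by 0.16 ± 0.02. Ndufa7, an accessory subunit, was the member lower in males. It ran from 32.2 to 51.7 CPM with a median of 40.8 CPM in males and from 40.2 to 53.7 CPM with a median of 45.9 CPM in females, a log2 difference of -0.16 ± 0.04 (adjusted p = 0.00202).

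In complex II, 2 of 4 members were higher in males. Sdha and Sdhb, the catalytic flavoprotein and the iron-sulfur subunit, were higher in males, with log2 differences of 0.16 ± 0.03 (adjusted p = 1.59e-06) and 0.18 ± 0.04 (adjusted p = 0.000950). Sdhc and Sdhd, the membrane anchors, were not called, and Sdhd was at -0.01 ± 0.03. Sdha ran from 604 to 728.8 CPM with a median of 656.5 CPM in males and from 550.1 to 653.9 CPM with a median of 592.9 CPM in females. The difference between the catalytic and the anchor subunits was not tested.

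In complex III, 6 of 9 members were higher in males (66.7%), with a median log2 difference of 0.09. Uqcr10, a small accessory subunit, had the largest difference at 0.25 ± 0.06 (adjusted p = 0.000294), and Cyc1, cytochrome c1, which hands electrons to cytochrome c, was next at 0.24 ± 0.04. Uqcrc1 and Uqcrc2, the core proteins, differed by 0.21 ± 0.04 and 0.08 ± 0.02. With library totals as the only scaling, Uqcrc2 was at 0.004 and was not called. The median of Cyc1 was 131.8 CPM in males and 112.3 CPM in females. Uqcrh, the hinge subunit, had the smallest difference at 0.04 and was not called.

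In the TMM fit, complex IV had the highest share after cytochrome c, with 9 of 12 members higher in males (75%). Its median log2 difference was 0.12. Cox7a2 ran from 63.7 to 91.6 CPM with a median of 70.7 CPM in males and from 50.9 to 77.2 CPM with a median of 58.7 CPM in females. Its log2 difference was 0.31 ± 0.04 (adjusted p = 1.29e-07). Ndufa4 followed at 0.22 ± 0.04, and Cox6b1 and Cox5b were at 0.16 ± 0.04 and 0.15 ± 0.04. The related Cox7a2l, an assembly factor of supercomplexes, was the lowest of the complex at 0.06 and was not called. Several complex IV calls were close to the threshold: those of Cox6c, Cox7b and Cox7c ended when any of 19, 18 and 11 libraries were left out. With library totals as the only scaling, the calls of Cox5a, Cox5b, Cox6a1, Cox6b1, Cox6c, Cox7b and Cox7c ended. The rank of complex IV among the complexes thus depends on the scaling.

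Complex V had the lowest share, with 6 of 17 members higher in males (35.3%) and a median log2 difference of 0.07, which was -0.009 with library totals. Atp5g3 ran from 226.6 to 311.5 CPM with a median of 254.4 CPM in males and from 193.3 to 256.0 CPM with a median of 225.9 CPM in females, a log2 difference of 0.20 ± 0.04 (adjusted p = 3.46e-05). The other 2 genes of the c subunit were not called, with Atp5g1 at -0.08 ± 0.04 (adjusted p = 0.112) and Atp5g2 at -0.01 ± 0.04 (adjusted p = 0.850). Atp5a1, the alpha subunit, and Atp5d, the delta subunit, differed by 0.15 ± 0.03 and 0.17 ± 0.05 (adjusted p = 1.12e-05 and 0.00449). With library totals as the only scaling, Atp5d was at 0.10 and was not called.

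**Figure D1:**
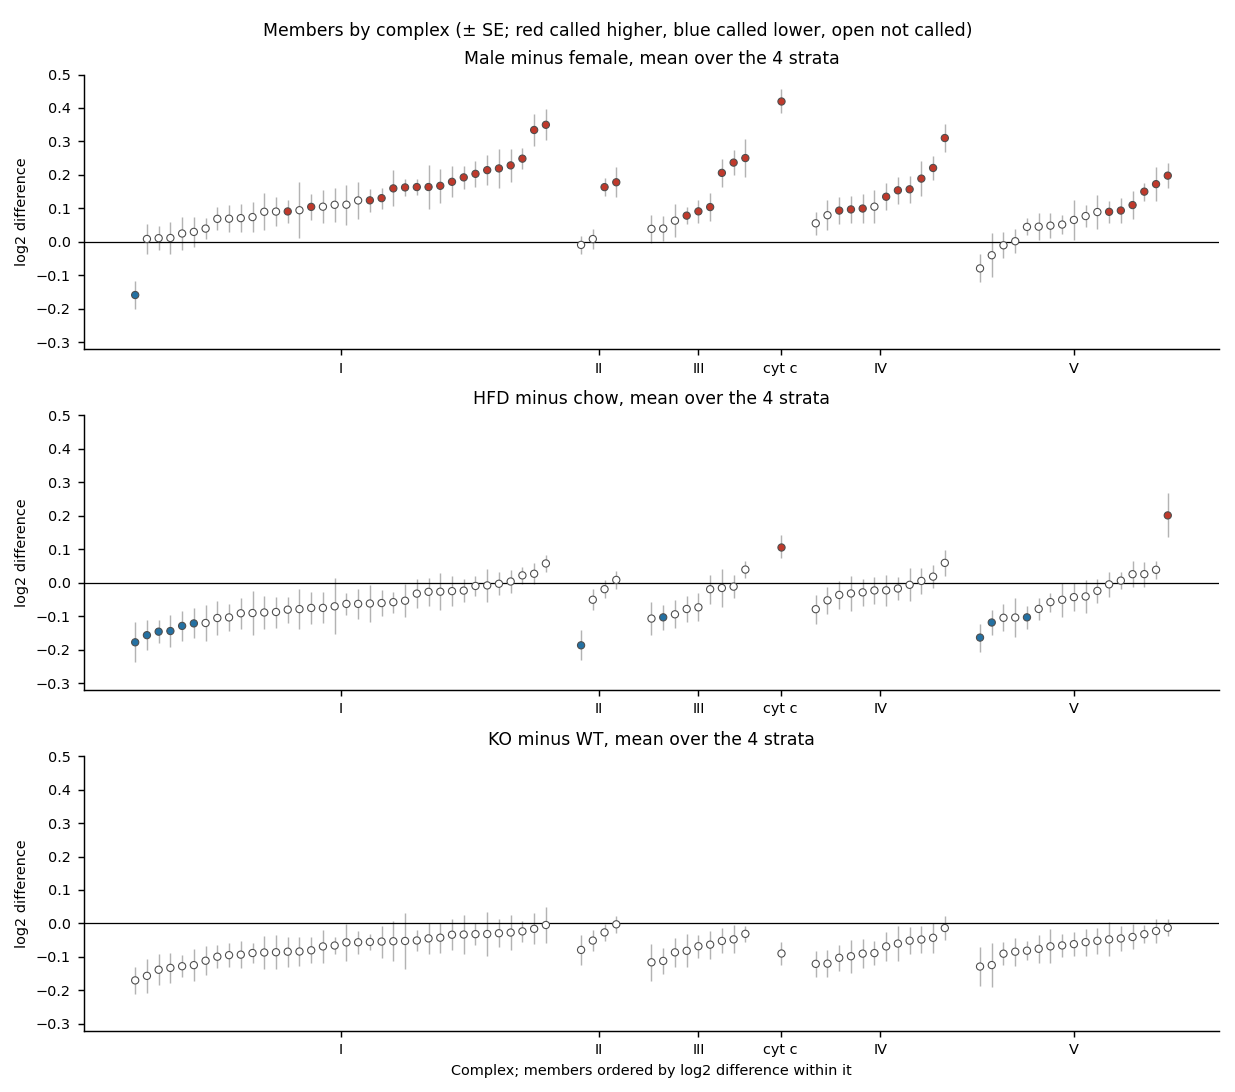
Log2 differences of the 79 members, each a point with its SE, by complex, for male minus female (top), HFD minus chow (middle) and KO minus WT (bottom), each a mean over 4 strata. Red points were called higher (42, 2 and 0), blue points lower (1, 11 and 0), and open points were not called.

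Other lists of mitochondrial genes were counted in the same comparison, where 25.1% of all genes were higher and 25.2% lower in males. Of the mitochondrial ribosome genes, 50 of 78 were higher and 3 lower in males, of the assembly factors 22 of 50 were higher and 3 lower, and of the mitochondrially encoded subunits 8 of 13 were higher, led by mt-Nd6 at 0.37 ± 0.07. With library totals, 26 mitochondrial ribosome genes were called in place of 53. Ndufaf4, a complex I assembly factor, differed by 0.56 ± 0.06 and Coq7, an enzyme of coenzyme Q synthesis, by 0.77 ± 0.06. Of 16 regulators, 3 were higher and 4 lower in males, among them Ppargc1a, a coactivator of mitochondrial genes, at -0.49 ± 0.10 (adjusted p = 5.91e-05) and Esrrg, a nuclear receptor, at -0.999 ± 0.11.

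Markers of other liver cells moved with sex too. All 5 Kupffer cell markers, all 5 endothelial markers, 3 of 5 stellate markers and 4 of 4 tested lymphocyte markers were lower in males. Of all genes tested, 25.1% were higher and 25.2% lower in males. The summed Kupffer markers ran from 81.0 to 193.9 CPM in males and from 167.6 to 321.2 CPM in females, and the summed endothelial markers from 91.9 to 156.9 CPM in males and from 131.6 to 201.9 CPM in females. The stellate markers summed to between 171.6 and 317.9 CPM in males and between 240.3 and 343.9 CPM in females, and the lymphocyte markers to between 1.04 and 4.77 CPM in males and between 3.56 and 7.70 CPM in females. No marker of these 4 lists was at 0 in all libraries. The hepatocyte markers summed to between 57110 and 91530 CPM in males and between 69150 and 128400 CPM in females. Red blood cell markers went the other way, with sums between 166.6 and 359.4 CPM in males and between 82.0 and 221.9 CPM in females. In bulk tissue, fewer cells of a type and less RNA per cell cannot be told apart. The part of cell makeup in the sex differences of the members was not tested.

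**Figure D2:**
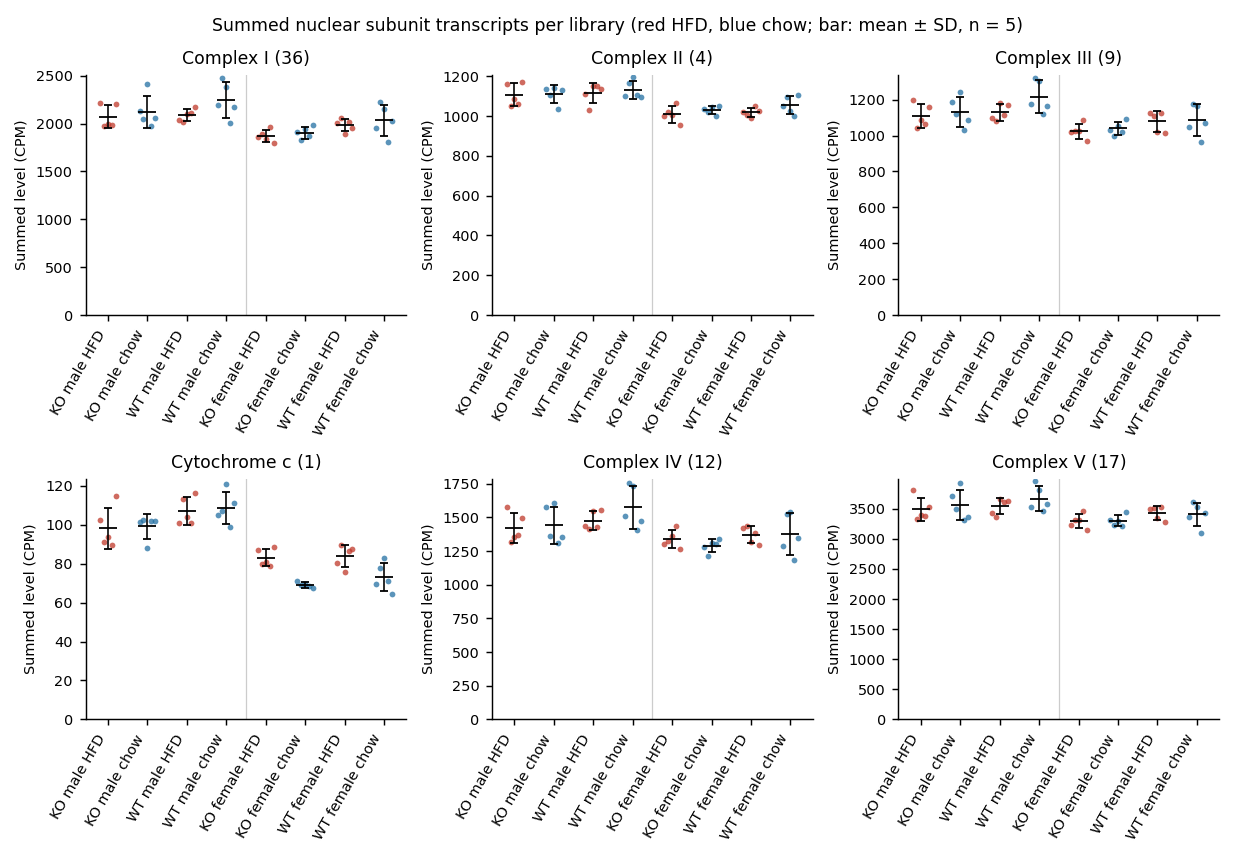
Summed CPM of the members of each complex in each library, by group, with mean ± SD (n = 5) as bars; red is HFD and blue is chow. Complex I averaged 2074 ± 125 CPM in KO males on HFD and 1869 ± 63.3 CPM in KO females on HFD, and the cytochrome c panel shows the widest gap between the sexes.

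HFD against chow called fewer members. In the mean over the 4 strata of genotype and sex, 2 of 79 members were higher (2.53%) and 11 lower (13.9%) on HFD, against 12.7% of all genes higher and 12% lower, 24.7% in either direction. The share that was lower is thus near that of all genes, and the share that was higher is below it. The median log2 difference, HFD minus chow, was -0.05 over the members and -0.003 over all genes. With library totals as the only scaling, the direction of the set turned: 10 members were higher and 2 lower, the median was 0.01, and that of all genes was 0.06. Under both scalings the median of the members lay below that of all genes. The shares of all genes called under library totals are not given. Of the 13 calls, 4 held under that scaling, those of Cycs, Atp5s, Sdhb and Atp5g1, and none changed sign.

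Of the 11 members lower on HFD, 10 had a negative log2 difference in all 4 strata. They were 6 of complex I, Sdhb, Cyc1 and 3 of complex V, and none of the 12 members of complex IV was called. Sdhb had the smallest adjusted p. It was at 154.8, 121.0, 130.4, 122.2 and 136.1 CPM in KO males on HFD, against 149.0, 136.1, 177.5, 118.4 and 146.7 CPM in KO males on chow, groups that overlapped widely. In WT males it was at 126.7, 121.8, 139.5, 143.2 and 133.4 CPM on HFD, against 146.8, 174.3, 168.6, 144.3 and 167.5 CPM on chow, with no overlap. In KO females it was at 111.8, 113.2, 117.4, 124.1 and 97.9 CPM on HFD, against 131.3, 116.6, 145.0, 127.8 and 140.2 CPM on chow, where 1 chow library lay within the HFD range. WT females overlapped widely, with 107.0 to 138.6 CPM on HFD and 114.1 to 147.0 CPM on chow. The mean log2 difference of Sdhb was -0.19 ± 0.04 (adjusted p = 0.00146).

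Of the other members, the largest and smallest estimates of each complex that were not called were Ndufs1 at 0.06, Sdha at 0.01, Uqcr11 at -0.11, Uqcrc2 at 0.04, Cox7a2 at -0.08 and Cox7c at 0.06. Among the complex I members, Ndufs8, an iron-sulfur subunit of the arm that takes up electrons, fell by 0.15 on the log2 scale on HFD (SE 0.04, adjusted p = 0.00167). It averaged 41.9 ± 1.73 CPM in WT males on HFD and 49.1 ± 5.67 CPM in WT males on chow, and 40.1 ± 2.52 CPM in KO females on HFD and 44.0 ± 1.97 CPM in KO females on chow (SD, n = 5 each). Ndufv3, an accessory subunit of the NADH-binding module, was at -0.16 ± 0.04 (adjusted p = 0.00732), Ndufa13 at -0.18 ± 0.06 (adjusted p = 0.0241) and Ndufb11, of the membrane arm, at -0.14 ± 0.05 (adjusted p = 0.023). Ndufa6 at -0.13 ± 0.04 and Ndufb10 at -0.12 ± 0.04 were nearer the threshold, and their calls ended when any of 8 and 29 libraries were left out. The call of Cyc1 (-0.10 ± 0.04, adjusted p = 0.0377) ended when any of 23 were. The other 10 calls held whichever library was left out.

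Of the 3 genes of the c subunit, 1 was called. Atp5g1 was at 124.2, 100.5, 103.3, 108.4 and 107.6 CPM in KO males on HFD, against 135.0, 126.3, 128.3, 117.2 and 112.6 CPM in KO males on chow. In WT males it was at 103.4, 118.4, 117.1, 106.4 and 113.8 CPM on HFD, against 133.1, 169.7, 129.8, 111.6 and 133.7 CPM on chow. In both pairs the HFD libraries were lower for the most part, with an overlap. Its mean log2 difference over the 4 strata was -0.16 ± 0.04 (adjusted p = 0.00294), while Atp5g2 was at 0.03 ± 0.04 and Atp5g3 at -0.01 ± 0.04, neither of them called; the differences between the 3 genes were not tested. Atp5h and Atp5j, subunits of the stalk that joins both parts of the ATP synthase, were at -0.12 ± 0.04 (adjusted p = 0.0126) and -0.10 ± 0.03 (adjusted p = 0.0191).

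Cycs and Atp5s were the members higher on HFD in the mean, at 0.11 ± 0.03 (adjusted p = 0.0195) and 0.20 ± 0.07 (adjusted p = 0.0212). Within strata both were called in KO females. Cycs was at 86.9, 79.8, 81.1, 78.7 and 88.4 CPM in KO females on HFD, against 71.3, 69.3, 69.5, 68.5 and 67.3 CPM in KO females on chow. All 5 HFD libraries were above all 5 chow libraries. In WT females it was at 80.6, 89.4, 75.9, 86.7 and 87.6 CPM on HFD, against 69.4, 78.0, 83.0, 71.2 and 64.2 CPM on chow, with 2 chow libraries inside the HFD range. In males the means were nearly level, at 98.2 ± 10.5 CPM in KO males on HFD and 99.2 ± 6.35 CPM in KO males on chow, and at 107.2 ± 7.28 CPM in WT males on HFD and 108.6 ± 8.10 CPM in WT males on chow.

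The log2 difference of Cycs was 0.26 ± 0.07 in KO females (adjusted p = 0.0178), 0.20 ± 0.07 in WT females (adjusted p = 0.123), -0.01 ± 0.07 in KO males and -0.02 ± 0.07 in WT males. The difference between the sexes in this diet effect, males minus females, was -0.25 ± 0.07, with an adjusted p of 0.1002 by edgeR and 0.036 by DESeq2. Atp5s averaged 7.05 ± 0.78 CPM in KO females on HFD and 5.13 ± 0.44 CPM in KO females on chow, also without overlap, with a log2 difference of 0.46 ± 0.13 (adjusted p = 0.0319). It averaged 7.02 ± 0.40 CPM in WT females on HFD and 5.89 ± 0.65 CPM in WT females on chow, a difference that was not called.

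**Figure D3:**
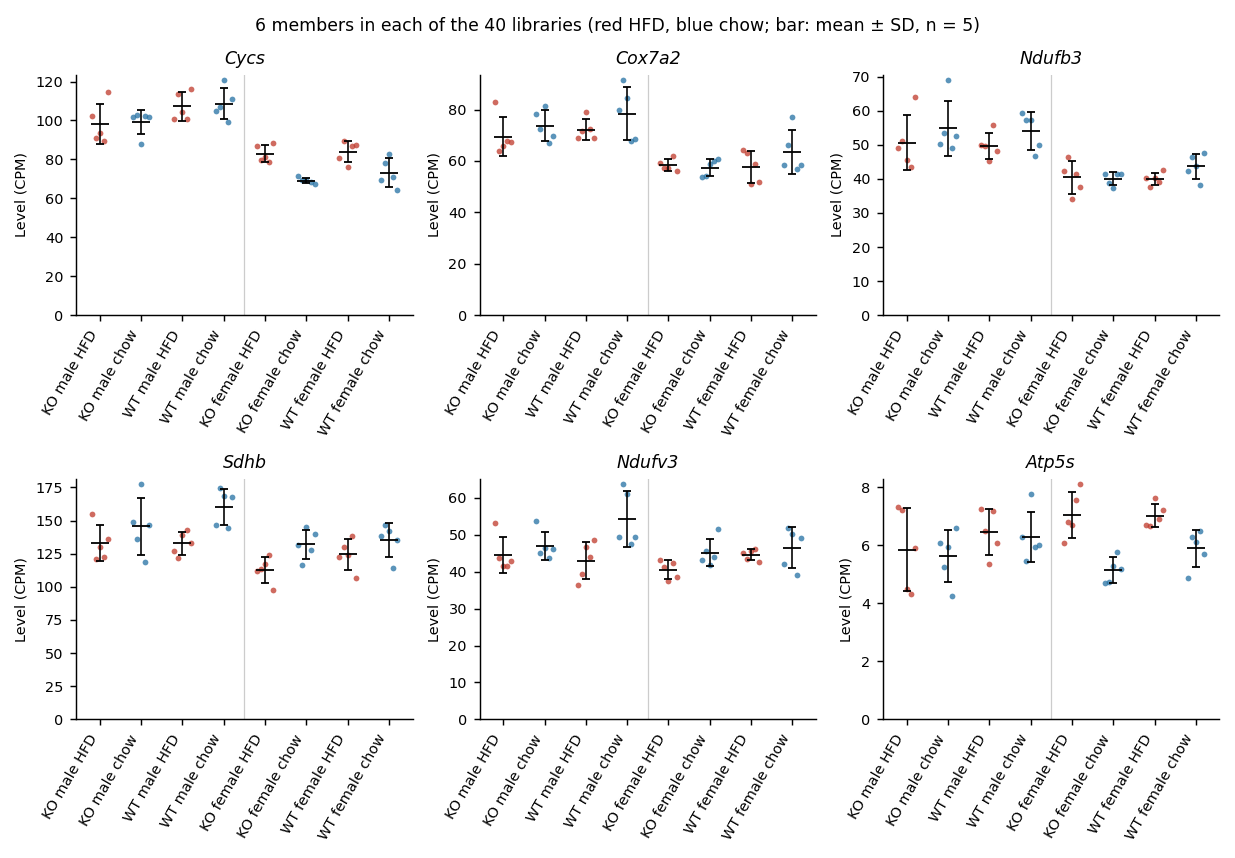
CPM of 6 members in each library, by group, with mean ± SD (n = 5) as bars; red is HFD and blue is chow, and axes start at 0. Cycs, Cox7a2 and Ndufb3 are higher in males (left of each panel), the log2 differences of Sdhb and Ndufv3 by diet are largest in WT males (-0.27 and -0.34), and those of Cycs and Atp5s in KO females (0.26 and 0.46).

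By stratum, calls were few. In WT males 6 members were lower on HFD (7.59%) and 0 higher, against 5.87% of all genes lower and 5.72% higher, 11.6% in either direction. They were Ndufv3 at -0.34 ± 0.09 (adjusted p = 0.00951), Atp5g1 at -0.28 ± 0.08, Sdhb at -0.27 ± 0.09, Uqcrb, a small subunit of complex III, at -0.24 ± 0.08, Ndufs8 at -0.23 ± 0.07 and Atp5j at -0.21 ± 0.07. In KO females 2 were higher (2.53%) and 0 lower, against 2.4% of all genes higher and 2.54% lower, 4.94% in either direction. In KO males 0 members were called by edgeR, where 2.32% of all genes were higher and 2.12% lower, 4.45% in either direction. An unadjusted p under 0.05 was seen there for 5 of 79 members and for 2772 of 15627 genes. In WT females 0 members were called, where 0.96% of all genes were higher and 1.84% lower, 2.8% in either direction. An unadjusted p under 0.05 was seen there for 3 of 79 members and for 2361 of 15627 genes. DESeq2 called 0 members in both of these strata as well.

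The calls within strata rested on few libraries. In WT males 0 members were called without WT male chow replicate 2, 1 without WT male HFD replicate 1, 2 without WT male HFD replicate 2 or replicate 3, 3 without WT male chow replicate 3, and 12 without WT male chow replicate 4. Library totals, no low-count filter and a fit of the 2 groups alone each left 1. The counts over all genes in these refits are not given, so a swing over all genes cannot be told from one of the members. In KO females the call of Cycs ended without KO female HFD replicate 1 or 5, and that of Atp5s without KO female chow replicate 1, 2, 3 or 5 or KO female HFD replicate 3, 4 or 5, which left 0 or 1 call. Neither interaction called a member by edgeR: 0 for diet by sex, where 0.339% of all genes were higher and 0.205% lower, 0.544% in either direction, and 0 for diet by genotype, where 0 of all genes were. At an unadjusted p under 0.05 there were 7 and 4 of 79 members, against 1622 and 1093 of 15627 genes. DESeq2 called 1 member (Cycs) for diet by sex and 0 for diet by genotype. Without KO male HFD replicate 5, 1 member was called for diet by sex.

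**Figure D4:**
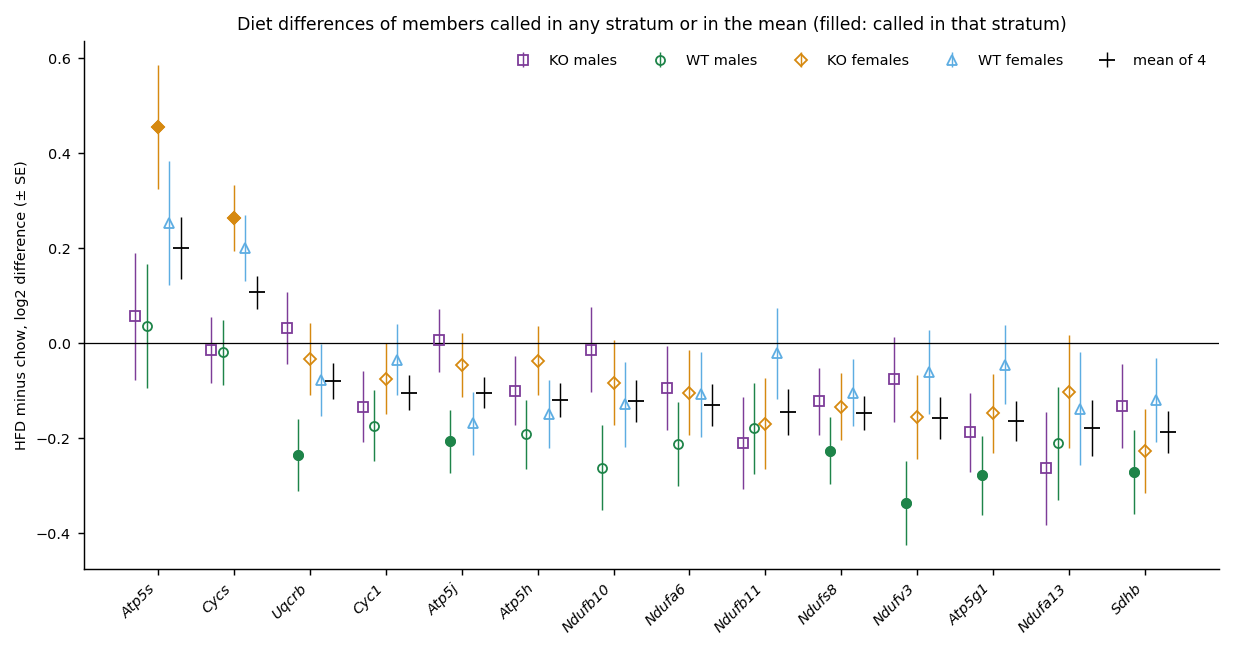
HFD minus chow log2 differences (± SE) of the 14 members called in any stratum or in the mean, for KO males, WT males, KO females, WT females and the mean of the 4; filled symbols were called in that stratum. The 6 filled WT male points lie between -0.34 and -0.21, and the 2 filled KO female points at 0.26 and 0.46.

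Pathways that feed the chain were counted in the same comparison, where 12.7% of all genes were higher and 12% lower on HFD. Of 13 genes of fatty acid beta oxidation, 11 were higher on HFD, with a median log2 difference of 0.30. Cpt1a, which lets long fatty acids into mitochondria, was at 0.85 ± 0.07 and Etfdh, which passes their electrons to coenzyme Q, at 0.30 ± 0.03. Of 14 citric acid cycle genes 4 were higher, and of 50 assembly factors 2 were higher and 9 lower. Of 78 mitochondrial ribosome genes 3 were higher and 10 lower, and of 13 mitochondrially encoded subunits 2 were lower, mt-Nd3 and mt-Co1. Of 16 regulators 3 were higher on HFD, Ppara, Nfe2l2 and Tfam. The citric acid cycle count was 9 with library totals, 1 without a low-count filter and 2 without KO male HFD replicate 5. Without WT female chow replicate 3, 7 assembly factors were called, and without KO male chow replicate 3, 4 mitochondrially encoded subunits were.

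Hepatocyte and other cell markers also moved with diet. Of 6 hepatocyte markers 4 were lower on HFD, and they summed to between 57110 and 128400 CPM on HFD and between 71620 and 105200 CPM on chow. The mean sum was level in WT females, at 95630 CPM on HFD and 95520 CPM on chow. It was lower on HFD in the other strata. Of 5 stellate markers 4 were higher and of 5 endothelial markers 3. Of all genes, 12.7% were higher and 12% lower on HFD. The stellate markers summed to between 223.4 and 343.9 CPM on HFD and between 171.6 and 325.6 CPM on chow, and the endothelial markers to between 100.5 and 201.9 CPM on HFD and between 91.9 and 190.9 CPM on chow. In KO females the stellate means were near level, at 308.5 CPM on HFD and 306.8 CPM on chow. The endothelial means there were 178.9 and 174.5 CPM. Both sums had higher means on HFD in the other strata. The part of these cell markers in the diet differences of the members was not tested.

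Between KO and WT no member was called. In the mean over the 4 strata of sex and diet 0 of 79 members and 0% of all genes passed by edgeR, and DESeq2 called 0 members too, with 26 members and 1044 of 15627 genes at an unadjusted p under 0.05. All 79 estimates were below 0, from -0.17 to -0.003, with a median of -0.07 over the members and -0.003 over all genes. With library totals as the only scaling, 72 were below and 7 above 0, and the median of the members was -0.04 and that of all genes 0.02. The members covary from library to library, with a median r of 0.742 between a member and the rest within groups, so the 79 signs are not separate observations.

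The smallest p in that comparison was that of Ndufa3, an accessory subunit of complex I, at -0.17 ± 0.04 (95% interval -0.25 to -0.09, adjusted p = 0.461). It ran from 27.2 to 34.9 CPM with a median of 30.9 CPM in the 20 KO libraries and from 27.9 to 40.9 CPM with a median of 33.9 CPM in the 20 WT libraries. The ranges overlapped, with the highest levels in WT libraries. The medians by complex were -0.06 for complex I, -0.04 for complex II, -0.07 for complex III, -0.08 for complex IV and -0.06 for complex V, and Cycs was at -0.09 ± 0.03. An unadjusted p under 0.05 was seen for 3 members in HFD-fed males, 17 in chow-fed males, 5 in HFD-fed females and 6 in chow-fed females. In the same order, 1088, 1323, 991 and 698 of 15627 genes had one. None was called by edgeR or DESeq2 in any of the 4, where at most 0.0064% of all genes were.

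Within the groups, libraries differed in the level of the whole chain. Each library's deviation from its group mean, averaged over the members on the log2(CPM + 0.5) scale, ran from -0.18 in WT female chow replicate 4 to 0.16 in KO male chow replicate 3. The deviations of complex I followed those of complex III with r = 0.941, of complex IV with r = 0.937, of complex V with r = 0.936 and of complex II with r = 0.809 over the 40 libraries. Those of Cycs followed complex I with r = 0.321 and complex II with r = 0.128. Without KO male chow replicate 3, the library with the highest deviation, r was 0.482 between Cycs and complex I and 0.21 between Cycs and complex II (39 libraries). These are descriptions, since the values share their libraries, depth and scaling. Members with shorter transcripts swung more: the SD of the library deviations was 0.10 over the 39 members with transcripts shorter than the median and 0.07 over the other 40. The lowest r of a member with the rest was that of Ndufs1 (-0.02) and the highest that of Atp5g3 (0.91), and 64 of 79 were above 0.5.

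**Figure D5:**
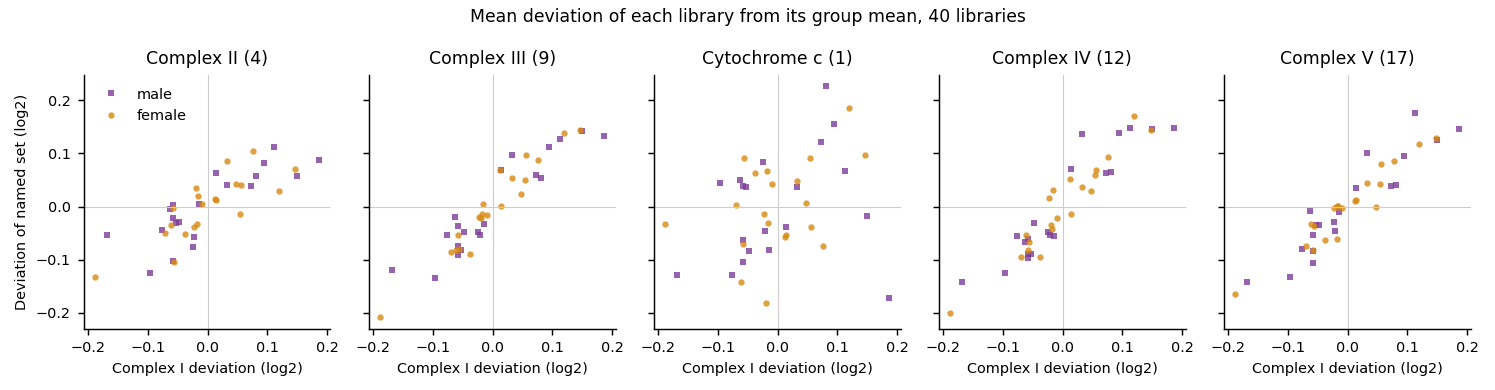
Mean deviation of each of the 40 libraries from its group mean (log2) for complexes II, III, IV and V and cytochrome c, against that of complex I; squares are male and circles female libraries. Complexes III, IV and V lie along a line (r of 0.941, 0.937 and 0.936), while cytochrome c is scattered (r = 0.321).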

How the data were processed

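Poly(A) RNA of 40 liver libraries was read as raw counts per gene, which the authors made with STAR 2.7.10b and featureCounts 2.0.6 on mm39, per the submitters' processing notes; the release of the annotation and the use of strand are unstated (not given in the sources used here). Gene names (GENCODE M21) matched 51880 IDs, 90.7% of them, with 99.7% of counts. No pair of replicate tables was identical. Counts were tested with edgeR 4.0.16 (R 4.3.3): low counts filtered by group, TMM scaling, 1 quasi-likelihood fit of 8 group means, Benjamini-Hochberg adjustment over 15627 genes within each contrast. CPM use TMM-scaled library sizes, except the threshold for members; RPKM divide by the median protein-coding transcript length. Errors of log2 differences are SEs, and intervals cover 95%. Scripts were tested on simulated counts. Alternatives were DESeq2 1.42.0, other scalings and filters, leaving out single libraries, and the replicate number as a block. Members and lists were chosen with earlier results of these data known. Genes were named by adjusted p within each complex, the extremes of each complex, the highest level per length, and tissue isoforms; 1 gene that this rule names is not reported here. Promoters are RefSeq sequences on GRCm38.p6, not the authors' build.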

Additional observations from a re-analysis of the deposited data

Results flagged for a closer look

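Of 208 groups of 5 values examined for a library far from the other 4, 8 held one, by a test that chance passes in about 1 of 20 groups. In KO males on chow, replicate 3 had 87.86 CPM of Cycs, which is also the summed level of cytochrome c, against 101.7 to 102.6 CPM in the other 4. The same library had 68.94 CPM of Ndufb3, against 49.06 to 53.64 CPM, and 111.6 CPM of Ndufa13, against 61.57 to 72.91 CPM. It is the library with 4.02% of its counts from the mitochondrial genome, and the part of that in these values was not tested. Ndufv3 was at 53.17 CPM in KO male HFD replicate 1, against 41.44 to 43.74 CPM in the other 4, and at 53.58 CPM in KO male chow replicate 1, against 43.82 to 46.41 CPM. Cox7a2 was at 82.84 CPM in KO male HFD replicate 1, against 63.69 to 67.77 CPM. Atp5g2 was at 55.81 CPM in WT male chow replicate 2, against 44.27 to 46.7 CPM.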

How the results depend on the processing

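No single call changed sign. With library totals, the diet direction of the set turned: the summed levels of complexes I to V, all below 0 in the TMM fit, were above 0, and the medians of complexes II, IV and V turned too, as did the complex V median by sex (-0.00939) and the complex II summed level by genotype (0.004688). From TMM to library totals, all genes moved by a median of 0.0644 by diet, -0.0743 by sex and 0.0274 by genotype. By diet, the median of the members stayed below that of all genes under both scalings. Also with library totals, 1 member was called by diet in WT females, 1 in WT males and 24 by sex. By diet, 7 assembly factors, 4 coenzyme Q genes, 9 citric acid cycle genes, 5 regulators and 6 carriers were called, and by sex 26 mitochondrial ribosome genes. The complex II median by sex was 0.0115, and the log2 differences of summed levels were 0.03591 (complex II, diet; -0.02834 with TMM), 0.04311 (complex II, sex) and 0.01144 (complex V, sex). Without a low-count filter, diet called 1 member in KO females, 1 in WT males and 7 in the mean, 6 assembly factors, 1 citric acid cycle gene and 7 mitochondrial ribosome genes, and sex called 4 regulators. Only the groups compared gave 1 member in WT males, and DESeq2 gave 1 for diet by sex. Union exon lengths gave medians of 35.42, 112.9 and 38.76 RPKM for complexes I, IV and V. Leaving out each library gave 0 to 2 members in KO females, 0 to 12 in WT males, 0 to 1 for diet by sex, 10 to 17 for diet and 37 to 48 for sex. By diet it gave 7 to 12 assembly factors, 2 to 4 mitochondrially encoded subunits and 2 to 6 citric acid cycle genes. The counts over all genes in these alternative settings are not given. Of 64 single calls, 64 held with DESeq2, 64 with RLE size factors, 60 with a filter of 1 CPM in 5 libraries, 41 without a filter and 29 with library totals. Same-numbered libraries correlated with a median r of 0.0019 over 140 pairs, from -0.38 to 0.43, with 36 above 0.1. In 25 pairs the own number gave the best match. In WT chow libraries, the members' mean deviations were 0.138 (female) and 0.137 (male) in replicate 2, and -0.183 and -0.147 in replicate 4. A median near 0 cannot exclude a batch shared by some same-numbered libraries, which was not tested. With a replicate block 63 of 64 calls held, and Cox6c by sex was lost (adjusted p = 0.0618). The cause was not tested. Correlations without KO male chow replicate 3 were chosen after seeing the data. Depth limits Atp5s, Ndufb2 and Ndufb8 most.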
